A study of Glycine max with 14 samples.

Results

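Flavonoid 3′-hydroxylase (F3′H) and flavonoid 3′,5′-hydroxylase (F3′5′H) are the enzymes that decorate the B-ring of flavonoids. They were followed here through their gene models Glyma06g21920.1 (F3′H, the T locus) and Glyma13g04210.1 (F3′5′H, the W1 locus), which are the only models of those loci in the table and make up 2 of its 69425 complete gene models. They were chosen by locus name and not by a rule on their values, although earlier results of these data were known. RNA from seed coats of greenhouse-grown soybean was sequenced by the authors (RNA-Seq) in 14 libraries, 7 from a black-seeded line, RM30-R*, and 7 from a brown-seeded line, RM38-r. RM38-r is a Clark isoline with the genotype i, r, T, whose r allele of the R locus, a MYB transcription factor gene, carries a single-base deletion in its coding sequence. RM30-R* has the genotype i, R*, T, is a stable black revertant recovered from a variegated Clark isoline, and still carries a large transposon, TgmR*, in an intron of its R gene. Both lines thus share the i allele and the T allele that encodes F3′H, and each genotype is represented by a single line. Seed coats were grouped by seed fresh weight. Each line was sampled with 2 libraries at 300–400 mg (green cotyledons) and again at 400–500 mg, and with a single library at 100–200 mg, at 200–300 mg and in desiccating seeds that weighed 300–400 mg.

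Anthocyanins and proanthocyanidins are built from a shared flavonoid skeleton, and the enzymes that act on its B-ring set which pigment family a molecule joins. F3′H adds a hydroxyl group at the 3′ position and opens the cyanidin branch, while F3′5′H hydroxylates both the 3′ and the 5′ positions and opens the delphinidin branch. In soybean, T is known for its effect on seed coat and pubescence color and W1 for its effect on flower color. The question addressed was how much transcript of each gene was present relative to the other in each library, at which stage that balance moved, and whether it moved alike in the black and the brown seed coats.

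Levels are given as RPKM, read counts divided by the length of the gene model and by all mapped alignments of that library, so that levels can be compared between genes. The mapped totals behind them, recovered from the steps between low values, were 49509767 to 100643235 alignments per RM30-R* library and 52510463 to 120239040 per RM38-r library. The lowest values rest on few reads, so each is given with its reads where that matters, and all intervals are exact 95% intervals that cover counting error only, since PCR copies are not independent molecules. A set of 50 neighbouring gene models, Glyma13g11810 to Glyma13g12210, took 48.8% of the summed RPKM in the first RM38-r library at 300–400 mg and 26.1% in the first RM38-r library at 400–500 mg, against 0.871 to 8.21% in the other 12 libraries. RPKM values of every other gene are lowered in those 2 libraries, whereas a ratio of 2 genes within a library is not touched by it. The R gene, listed as Glyma09g36990.1, ranged from 0 to 1.07 RPKM over the black libraries and from 0.0776 to 3.70 RPKM over the brown ones. In whole seed coats, fewer expressing cells and less RNA per cell cannot be told apart.

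F3′H was by far the more abundant hydroxylase transcript in young seed coats of both lines, and in both it was highest at 100–200 mg and lowest in desiccating seed coats. At 100–200 mg its level was 71.0 RPKM in RM30-R* (13557 reads) and 61.6 RPKM in RM38-r (11870 reads). At 200–300 mg the black library had 11.7 RPKM and the brown library 4.07 RPKM. F3′H was thus lower at 200–300 mg in both lines, and lower in the brown one. At 300–400 mg the RM30-R* libraries had 14.5 and 13.0 RPKM and the RM38-r libraries 1.59 and 2.78 RPKM. At 400–500 mg the RM30-R* libraries had 4.42 and 6.37 RPKM and the RM38-r libraries 3.33 and 5.89 RPKM. The lines did not overlap at 300–400 mg and overlapped at 400–500 mg. At both stages the first brown library is one with lowered RPKM values, as given above. The share of all gene models without overlap was not counted, so this describes these libraries only. In desiccating seed coats F3′H was at its lowest, at 1.14 RPKM for the black line (126 reads) and 0.789 RPKM for the brown line (88 reads).

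Ordered by level in RM30-R*, F3′H was highest at 100–200 mg, followed by 300–400 mg (13.8 ± 1.07 RPKM, SD, n = 2), 200–300 mg, 400–500 mg (5.40 ± 1.38 RPKM, SD, n = 2) and desiccating seed coats. The 200–300 mg value lay below both 300–400 mg replicates, and its own spread is not known from 1 library. In RM38-r the order was 100–200 mg, 400–500 mg (4.61 ± 1.81 RPKM, SD, n = 2), 200–300 mg, 300–400 mg (2.18 ± 0.840 RPKM, SD, n = 2) and desiccating. There the 200–300 mg value fell between the 400–500 mg replicates, so these neighbours did not differ beyond their spread. The stage mean of F3′H was higher in RM30-R* at each of the 5 stages, although at 400–500 mg the lines overlapped.

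F3′5′H was scarce in most libraries and had its highest values in late black seed coats. At 100–200 mg 19 reads gave 0.124 RPKM in RM30-R*, and 28 reads gave 0.181 RPKM in RM38-r. At 200–300 mg the black library had 0.0778 RPKM (9 reads) and the brown library 0.684 RPKM. At this stage the brown library was the higher one, and it was the highest F3′5′H value of all 7 RM38-r libraries. At 300–400 mg the RM30-R* libraries had 0.0798 and 0.138 RPKM (6 and 17 reads) and the RM38-r libraries 0.0125 and 0.0206 RPKM (1 and 2 reads). At 400–500 mg the RM30-R* libraries had 4.66 and 1.44 RPKM (629 and 158 reads) and the RM38-r libraries 0.0435 and 0.0706 RPKM (5 and 8 reads). In desiccating seed coats the black library reached 4.87 RPKM (431 reads) and the brown library 0.336 RPKM (30 reads). From 300–400 mg onwards every black library was thus above every brown library of its stage, although the brown 300–400 mg values were below what 3 reads are worth (0.0376 and 0.0308 RPKM). The share of all gene models in that order was not counted.

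The order of F3′5′H in RM30-R* was nearly the reverse of that of F3′H. Desiccating seed coats came first and 400–500 mg (3.05 ± 2.28 RPKM, SD, n = 2) followed, and these neighbours did not differ beyond the spread at 400–500 mg. Far below them stood 100–200 mg, 300–400 mg (0.109 ± 0.0413 RPKM, SD, n = 2) and 200–300 mg, whose counting intervals overlapped. In RM38-r the order was 200–300 mg, desiccating, 100–200 mg, 400–500 mg (0.0571 ± 0.0192 RPKM, SD, n = 2) and 300–400 mg (0.0165 ± 0.00567 RPKM, SD, n = 2). The last stages in that order rest on 13 and 3 reads summed over their libraries, so their order is not resolved at this depth.

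**Figure D1:**
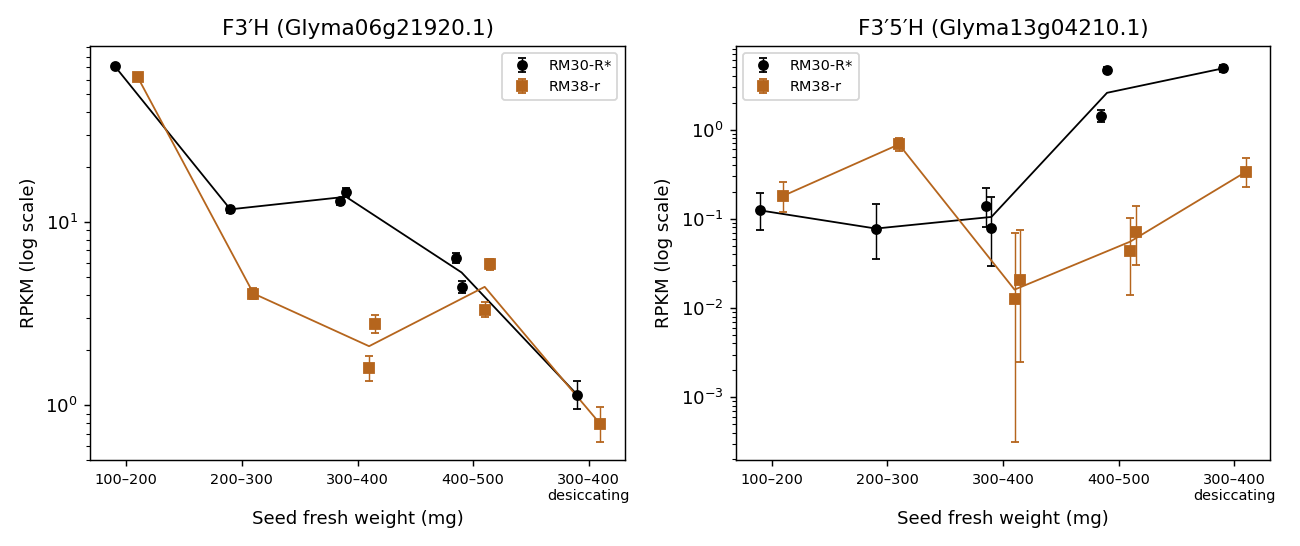
RPKM of F3′H (left) and F3′5′H (right) on log axes against seed fresh weight in mg, for RM30-R* (black circles) and RM38-r (brown squares), where each point is a library, bars are exact 95% counting intervals and lines join the geometric means of each stage. F3′H had 71.0 and 61.6 RPKM at the youngest stage and 1.14 and 0.789 RPKM at the last, while F3′5′H in RM30-R* stood at 1.44 to 4.87 RPKM in the late stages and at 0.0778 to 0.138 RPKM before them.

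The ratio of F3′5′H to F3′H joins both courses. At 100–200 mg it was 0.00175 (interval 0.00105 to 0.00273) in RM30-R* and 0.00294 (0.00196 to 0.00426) in RM38-r, so F3′H had 572 and 340 times the RPKM of F3′5′H. At 200–300 mg it was 0.00663 (0.00303 to 0.0126) in RM30-R* and 0.168 (0.138 to 0.203) in RM38-r. The brown line was ahead at this stage, by more than the counting error of either library, and with 1 library per line the spread between samples is not known. At 300–400 mg the ratio was 0.00549 and 0.0106 in the RM30-R* libraries and 0.00790 and 0.00741 in the RM38-r libraries. Here the brown values lay between the black ones, and the geometric means were equal to the printed precision (0.00764 in RM30-R* and 0.00765 in RM38-r), although both genes were lower in the brown line.

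At 400–500 mg the ratio was 1.06 (0.947 to 1.18) and 0.226 (0.190 to 0.268) in the RM30-R* libraries. The RM38-r libraries had 0.0131 (0.00423 to 0.0307) and 0.0120 (0.00516 to 0.0237). The lines no longer overlapped, and the black replicates differed from each other by more than their counting error. In desiccating seed coats the ratio was 4.27 (3.49 to 5.25) in RM30-R* and 0.426 (0.271 to 0.651) in RM38-r. F3′5′H thus had more RPKM than F3′H in 2 of 7 RM30-R* libraries, in 1 of which the interval lay above 1, and in 0 of 7 RM38-r libraries. As a share of the summed RPKM of both hydroxylases, F3′5′H ran from 0.175 to 81.0% in RM30-R* (median 1.05%, n = 7) and from 0.294 to 29.9% in RM38-r (median 1.18%, n = 7).

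**Figure D2:**
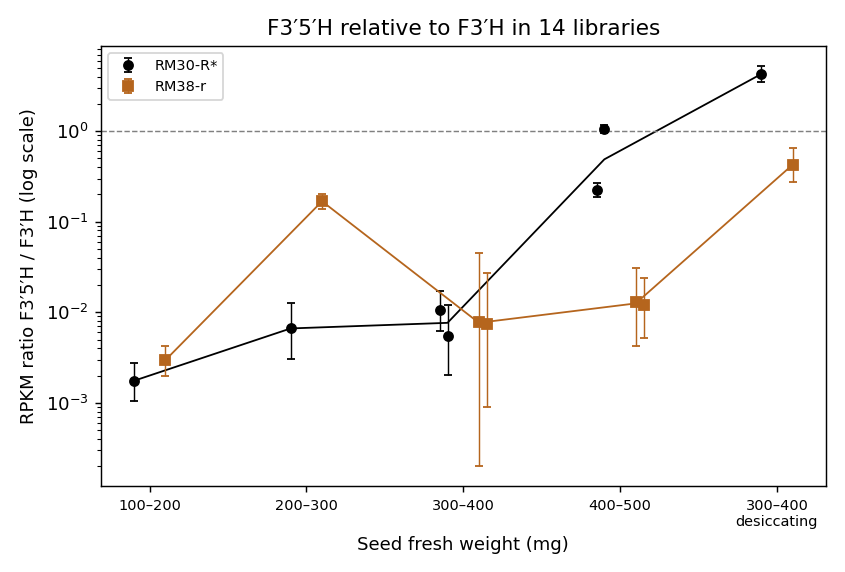
Ratio of F3′5′H RPKM to F3′H RPKM (log axis) against seed fresh weight in mg, for RM30-R* (black circles) and RM38-r (brown squares), with exact 95% counting intervals, lines through the geometric means and a dashed line at equal RPKM. The lines overlap at 300–400 mg, RM38-r is the higher at 200–300 mg (0.168 against 0.00663) and RM30-R* is the higher at 400–500 mg and in desiccating seeds.

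In RM30-R* the balance moved most between 300–400 mg and 400–500 mg. The geometric mean ratio was 63.9-fold higher at the end of that step, a log2 difference of 6.00, in which F3′5′H changed by 4.63 and F3′H by −1.37. The fold depended on single libraries, with 29.6 and 138 when the first or the second RM30-R* library at 400–500 mg was left out and 46.0 and 88.9 when the first or the second at 300–400 mg was. The step before it, from 200–300 mg to 300–400 mg, had a log2 difference of 0.21, and the step after it, to desiccating seed coats, one of 3.13. Without the second black library at 300–400 mg the former was −0.27 (0.68 without the first), and the latter was 4.24 without the first black library at 400–500 mg and 2.02 without the second. In that last step F3′H changed by −2.22 and F3′5′H by 0.91. The earliest step, from 100–200 mg to 200–300 mg, had a log2 difference of 1.92, with −2.60 in F3′H and −0.68 in F3′5′H. It rests on 1 library per stage and on 19 and 9 reads of F3′5′H. The shift to 400–500 mg was thus mostly a difference in F3′5′H. The last was mostly a difference in F3′H, and in the earliest F3′5′H was itself lower.

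In RM38-r the ratio followed a different course. It was 57.1-fold higher at 200–300 mg than at 100–200 mg, a log2 difference of 5.84, in which F3′H changed by −3.92 and F3′5′H by 1.92. From there to 300–400 mg its log2 difference was −4.46, with −5.41 in F3′5′H and −0.96 in F3′H. From 300–400 mg to 400–500 mg the log2 difference was 0.71, with 1.79 in F3′5′H, from 3 summed reads, and 1.08 in F3′H. In desiccating seed coats the ratio was 34.0-fold higher than at 400–500 mg, a log2 difference of 5.09, in which F3′H changed by −2.49 and F3′5′H by 2.60. The high early value and the high late value each rest on a stage with 1 library.

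**Figure D3:**
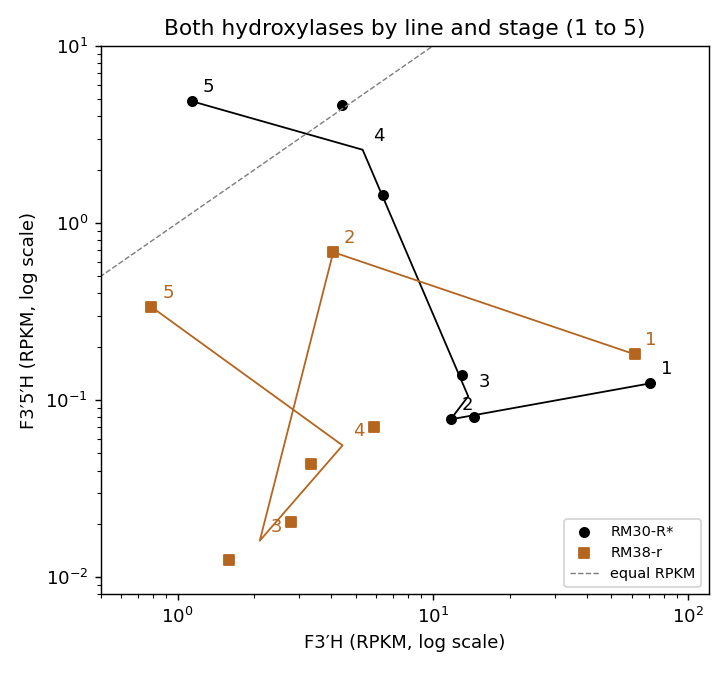
F3′5′H RPKM against F3′H RPKM, both on log axes, in the 14 libraries of RM30-R* (black circles) and RM38-r (brown squares), with lines through the geometric means of the stages numbered 1 (100–200 mg) to 5 (desiccating) and a dashed line of equal RPKM. RM30-R* moves towards the dashed line at 400–500 mg (geometric mean ratio 0.489, libraries 1.06 and 0.226) and past it in desiccating seeds (ratio 4.27). RM38-r stays below it at every stage (highest ratio 0.426).

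The difference between the lines in the log2 ratio, RM30-R* minus RM38-r, was −0.75 at 100–200 mg, −4.66 at 200–300 mg, −0.00 at 300–400 mg, 5.29 at 400–500 mg and 3.33 in desiccating seed coats. At 400–500 mg it was 5.55 in F3′5′H less 0.26 in F3′H, which was also higher in RM30-R*. Averaged over the 5 stages the line difference was 0.64 (two-sided exact permutation test of the line labels within stages, p = 0.639, 288 regroupings). The difference at the last 2 stages minus that at the first 3 was 6.11 (two-sided exact permutation test, p = 0.0208, where the smallest p these regroupings can give is 0.00694). Adjusted over these 2 tests by the Benjamini-Hochberg method the values were p = 0.639 and p = 0.0417 (exact permutation). The division into early and late stages was made with the course of F3′5′H known, so the second p is no independent evidence. Without the 200–300 mg stage, an alternative chosen after seeing the data, the early to late difference was 4.68 (exact permutation p = 0.0417, with 0.0139 the smallest possible), and the average over stages was 1.96 (exact permutation p = 0.139).

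Read counts of single pairs of libraries, here matched by replicate number although the labels do not pair them, give the counting error of the F3′5′H difference. At 400–500 mg F3′5′H was 107-fold higher in RM30-R* in the first pair (interval 45.7 to 331) and 20.4-fold higher in the second (10.1 to 48.1). In desiccating seed coats it was 14.5-fold higher (10.0 to 21.7). Matched the other way, the 400–500 mg libraries gave 66.0 (33.3 to 153.6) and 33.1 (13.9 to 103). All these intervals lie above equality. At 300–400 mg the ratios were 6.36 (0.772 to 293) and 6.72 (1.60 to 60.0), from 1 and 2 reads in RM38-r. At 200–300 mg the ratio was 0.114 (0.0508 to 0.223), the reverse direction.

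Tests over all gene models were made with limma on log2(RPKM + 0.5), a scale on which the change of a gene as low as F3′5′H is understated. F3′5′H passed the filter on low values in the 8 libraries of the replicated stages only through the black 400–500 mg libraries, where it was high, and in all 14 libraries through those, the black desiccating library and the brown 200–300 mg library. As fitted, none of the line comparisons reached an adjusted p under 0.05 for either gene. At 300–400 mg F3′H was higher in RM30-R* by 2.45 (SE 0.35, limma adjusted p = 0.0834, unadjusted p = 5.82e-05), in a comparison in which 0.0298% of 40334 gene models were called and in which the median of all models was 0.33. Rescaled to equal 75th percentiles, which lifts the libraries dominated by a few models, the F3′H difference was 2.16 (limma adjusted p = 0.0790). The call depended on the fit. With the library number series as a block the limma adjusted p of F3′H was 0.0399, where 26 of 40334 gene models were called. In a fit to this stage alone it was 0.00162 (limma), where 852 of 38683 were called, so many more models passed there too. Fits without a 400–500 mg library leave 1 library in a group and are named under the alternatives below. F3′5′H differed there by 0.24 (SE 0.41, limma adjusted p = 0.724).

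At 400–500 mg F3′5′H was higher in RM30-R* by 2.51 (SE 0.41, limma adjusted p = 1.00, unadjusted p = 0.000157), and 6 of the 40334 gene models had a larger positive difference. It entered the tests of the replicated stages only through the black 400–500 mg libraries. Its p-values and ranks there are thus no independent support. Without either black 400–500 mg library F3′5′H failed the filter. With no filter, an alternative chosen after seeing the data, the difference was 1.80 without the first (limma adjusted p = 0.153) and 3.21 without the second (limma adjusted p = 0.0210), in fits where the remaining black library was assumed to vary like the other groups. F3′H differed by 0.23 (SE 0.35, limma adjusted p = 1.00). In this comparison limma called 0% of gene models, and 141 had an unadjusted p under 0.05. The change of the line difference between the stages was −2.21 for F3′H (SE 0.50, limma adjusted p = 0.995, unadjusted p = 0.00151) and 2.27 for F3′5′H (SE 0.58, limma adjusted p = 0.995, unadjusted p = 0.00337), where 0% of models were called and 1298 had an unadjusted p under 0.05. The members thus had estimates of opposite sign in a comparison that called no gene model and in which the median of all models was −0.23. Their sizes depended on the processing. Over other pseudocounts, filters, scalings and the block fit, F3′5′H had 1.69 to 3.28 and F3′H −2.40 to −2.00. Over all stages, with 14 libraries, the line difference was 1.05 for F3′H (SE 0.32, limma adjusted p = 0.673) and 1.00 for F3′5′H (SE 0.44, limma adjusted p = 0.734). There 0% of 44080 models were called and 2934 had an unadjusted p under 0.05. That fit assumes 1 line effect for all stages, whereas by stage the difference of F3′5′H ran from −1.04 at 200–300 mg to 2.68 in desiccating seed coats.

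The same limit of the filter holds within RM30-R*. There F3′5′H changed by 2.38 from 300–400 mg to 400–500 mg (SE 0.41, limma adjusted p = 0.163, unadjusted p = 0.000233), 56 of 40334 gene models having a larger positive estimate. With no filter it was 1.67 without the first black 400–500 mg library (limma adjusted p = 0.139) and 3.09 without the second (limma adjusted p = 0.0210). F3′H changed by −1.29 (SE 0.35, limma adjusted p = 0.427). Called were 0.00744% of models. Within RM38-r, F3′H changed by 0.92 (SE 0.35, limma adjusted p = 0.590) and F3′5′H by 0.11 (SE 0.41, limma adjusted p = 0.916), with 0.0223% of models called. F3′H was therefore lower in both later black libraries and higher in both later brown ones, without an adjusted p under 0.05 in either line. How many of all gene models did the same was not counted.

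Stage steps averaged over both lines were estimated from all 14 libraries, with 1 line effect assumed for every stage. The 100–200 mg, 200–300 mg and desiccating stages have a single library per line. In this fit the lines act as the replicates of a stage, and a step that differs between the lines adds to the error. F3′H fell by 3.16 from 100–200 mg to 200–300 mg (SE 0.59, limma adjusted p = 0.00307), a step with 16.7% of models called. It fell again from 400–500 mg to desiccating seed coats (−1.88, SE 0.52, limma adjusted p = 0.0263), a step with 17.9% called. Without the brown 100–200 mg library the first was −2.66 (limma adjusted p = 0.0689). The second had a limma adjusted p over 0.05 without either desiccating library or either brown 400–500 mg library (estimates −2.29 to −1.47, adjusted p 0.0510 to 0.231). The steps between were −0.29 (limma adjusted p = 1.00) and −0.19 (limma adjusted p = 0.875) for F3′H, with 0% of models called in the first (2142 with an unadjusted p under 0.05) and 0.504% in the second. For F3′5′H the 4 steps were 0.34, −0.56, 1.24 and 0.67, with limma adjusted p values of 0.840, 1.00, 0.424 and 0.559.

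The rest of the pathway was read from the genes that the study's methods list, 11 of which were in the table and tested. They make the shared precursors (CHS7, CHS8, CHI1A, F3H), reduce and oxidize them to anthocyanidins (DFR1, DFR2, ANS2, ANS3), or attach sugars and methyl groups (UGT78K1, UGT78K2, AOMT). In the comparisons of the lines limma called 0 of 11 in each, with 10 of 11 positive at 300–400 mg (median 1.99, against 0.33 over all models) and 10 of 11 at 400–500 mg (median 0.70, against 0.11). At an unadjusted p under 0.05 limma had 7 of the 11 at 300–400 mg (11.7% of all models), 4 at 400–500 mg (0.35%), 3 for the change of the line difference between these stages (3.22%) and 8 over all stages (6.66%). From 100–200 mg to 200–300 mg CHI1A rose by 1.19 (limma adjusted p = 0.00782) and CHS8 changed by −1.93 (limma adjusted p = 0.0411), 1 in each direction of the 11, where 4.27% of all models rose and 12.4% fell, so that the share called was near the 16.7% of all models. From 400–500 mg to desiccating seed coats 5 of 11 fell and 0 rose, where 8.76% of all models fell and 9.17% rose. These were CHS7, CHS8, F3H, DFR1 and AOMT, with estimates of −3.58 to −1.84.

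By stage, the line difference on log2(RPKM + 0.5) of F3′H was 0.20, 1.42, 2.45, 0.23 and 0.35 from 100–200 mg to desiccating seed coats. F3H, which makes the dihydroflavonol on which both hydroxylases can act, had −0.06, 0.84, 1.99, 0.94 and 0.47, and AOMT, an anthocyanin O-methyltransferase, had 0.43, 1.25, 2.17, 0.90 and 0.70. Each of these 3 genes had its highest line difference at 300–400 mg, as did CHS7 (2.23), CHS8 (2.26) and DFR1 (1.64). The first brown library of that stage has lowered RPKM values, and the median difference of all models was 0.33 there, against 0.11 at 400–500 mg. How far this enters the shared peak was not tested. For F3′5′H the line differences were −0.13, −1.04, 0.24, 2.51 and 2.68, and for DFR2, a dihydroflavonol reductase, they were 0.36, −0.35, 0.58, 1.84 and 2.38. Both had negative values at 200–300 mg and their highest values in desiccating seed coats. The same was seen in UGT78K2 (−1.06 and 1.64), UGT78K1 (−0.74 and 0.91) and CHI1A (−0.32 and 0.59). ANS2 and ANS3, the anthocyanidin synthases, were higher in RM30-R* by 2.25 to 2.72 on this scale at the last 3 stages, as descriptions of stages with 1 or 2 libraries per line.

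**Figure D4:**
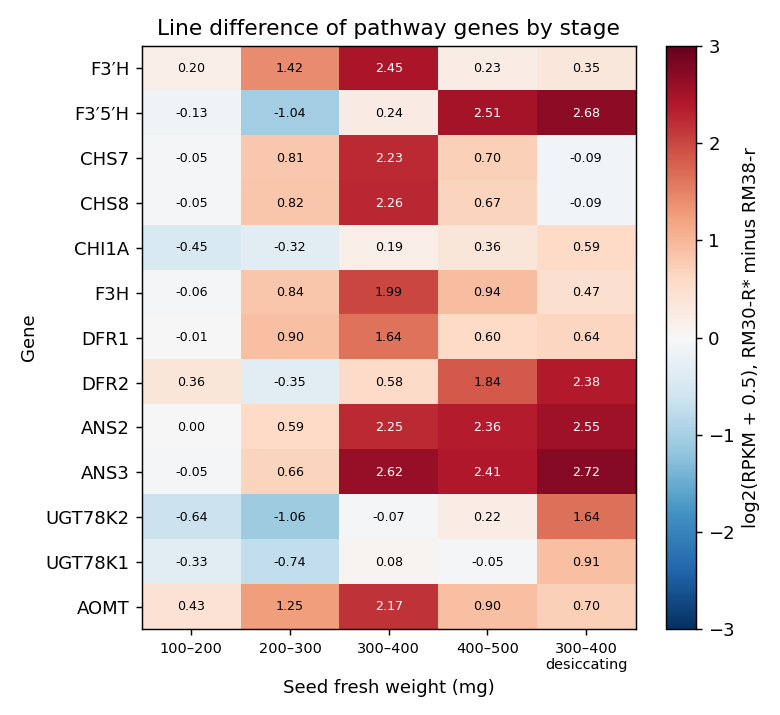
Line difference, RM30-R* minus RM38-r in log2(RPKM + 0.5), for both hydroxylases and the 11 other pathway genes (rows) at each seed fresh weight in mg (columns), with red for higher in RM30-R* and blue for higher in RM38-r. F3′H peaks at 300–400 mg (2.45, where the median of all models was 0.33), and F3′5′H and DFR2 are highest in desiccating seeds (2.68 and 2.38).

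Measured against F3H, F3′H had its highest share at the youngest stage in both lines. F3′H had 21.7% of the RPKM of F3H at 100–200 mg in RM30-R* and 18.1% in RM38-r, and between 3.54 and 12.2% in the later RM30-R* libraries and 4.49 and 8.59% in the later RM38-r libraries. F3′5′H had 0.0380 to 0.107% of F3H in the RM30-R* libraries up to 300–400 mg, 3.74 and 1.77% at 400–500 mg and 24.0% in desiccating seed coats. In RM38-r it had 0.755% at 200–300 mg, 2.31% in desiccating seed coats and 0.0474 to 0.112% otherwise. In RM30-R* DFR2 ran closer to F3′5′H late in development: the ratio of F3′5′H to DFR2 was 0.0264 at 100–200 mg, 1.19 and 1.02 at 400–500 mg and 1.70 in desiccating seed coats. In RM38-r that ratio was 0.0510 at 100–200 mg, 0.416 at 200–300 mg and only 0.123 and 0.258 at 400–500 mg. It was 2.29 in desiccating brown seed coats, from 30 reads of F3′5′H and 11 of DFR2.

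Among 35447 gene models with a mean of at least 1 RPKM, those whose log2(RPKM + 0.5) followed F3′H most closely over the 14 libraries were Glyma03g42350.1 and its other model (Pearson r = 0.995 each), Glyma10g06220.1 (0.991), Glyma15g10890.4 (0.990) and Glyma02g33340.1 (0.989). Those closest to F3′5′H were Glyma19g35880.1 (0.851), Glyma18g04960.1 (0.821) and 3 models of Glyma03g05120 (0.786 to 0.796). These correlations are descriptions across libraries that share stage, line and composition, and the models carry no annotation in the sources used here. Glyma18g04960.1 was picked by this correlation, so a course like that of F3′5′H is no separate result. It had 7.11 RPKM in the brown 200–300 mg library against 4.09 in the black one. In the black 400–500 mg libraries it had 21.0 and 4.22 RPKM, against 0.0354 and 0.0599 RPKM in the brown ones. Its black 200–300 mg value was thus close to the lower of its black 400–500 mg values, whereas F3′5′H had only 0.0778 RPKM in that black 200–300 mg library. In desiccating seed coats Glyma18g04960.1 had 6.19 RPKM in RM30-R* and was listed at 0 in RM38-r.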

How the data were processed

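RNA-Seq values of 14 seed coat libraries were analysed. The deposited values are RPKM. Bowtie, version 1 per the submitters' processing notes, was used by the authors to align reads to Glyma1 gene models. A read with several permitted alignments was counted at each, so that similar models can share reads and mapped totals count alignments. An incomplete last line was left out. Of the value columns, 0 belonged to no sample. CHI2, ANR1, ANR2 and other B-ring hydroxylases were not analysed here. Markers of seed coat or other cell types were not used, because no source pairs them with gene models.

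Reads were recovered from the steps between low values. Both members gave values within 0.02 of a whole read in all 14 libraries. Intervals are exact (Clopper-Pearson).

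limma (version 3.58.1, R 4.3.3) was fitted to log2(RPKM + 0.5) with a variance trend and two-sided tests, adjusted by Benjamini-Hochberg over all models that reached 0.5 RPKM in 2 or more libraries and called at an adjusted p under 0.05. Comparisons within the replicated stages used 8 libraries with a mean per line and stage. The others used all 14 with line and stage as terms. Log2 ratios were tested by exact permutation of lines within stages (scipy 1.17.1). The study describes the second 400–500 mg libraries as biological replicates from separate extractions. No source used here says this of those at 300–400 mg or names separate plants, so p-values measure the spread between these samples, which may in part be technical. Scripts were tested on simulated data.

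Named genes were the members, the other pathway genes of the study's methods, the R gene and, for each member, the 5 models of other loci with the highest correlation. Members, lists and tests were chosen with earlier results of these data known. Alternatives were other pseudocounts, filters, scalings, single-stage and block fits, and leaving out each library. F3′5′H failed the filter without either black 400–500 mg library, and was then fitted with no filter. This fit and leaving out the 100–200 mg or the 200–300 mg stage were chosen after seeing the data.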

Additional observations from a re-analysis of the deposited data

Results flagged for a closer look

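F3′H moved in opposite directions between 300–400 mg and 400–500 mg in the lines. Every RM30-R* library was lower at the later stage (14.5 and 13.0 RPKM, then 4.42 and 6.37 RPKM) and every RM38-r library was higher (1.59 and 2.78 RPKM, then 3.33 and 5.89 RPKM). The difference between these changes was −2.21 on the log2 scale (SE 0.50, limma adjusted p = 0.995, unadjusted p = 0.00151), and it was −2.03 after rescaling to equal 75th percentiles. Such opposite signs were not particular to F3′H. The limma estimates of CHS7, CHS8, F3H, DFR1 and AOMT were −0.87 to −0.30 in RM30-R* and 0.20 to 0.76 in RM38-r. Of the 11 other pathway genes, 6 had positive estimates in RM30-R* and 11 in RM38-r, where the median of all models was 0.25. The share of all gene models with opposite courses was not counted. The share of summed RPKM held by the 50 neighbouring models was 48.8% and 26.1% in the first brown libraries at these stages, and its part in the result beyond that rescaling was not tested.

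The line difference of the log2 ratio of F3′5′H to F3′H differed between early and late stages by 6.11 (exact permutation p = 0.0208, no independent evidence because the stages were divided with the course of F3′5′H known), with RM38-r ahead or equal at the first 3 stages and RM30-R* ahead at the last 2.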

How the results depend on the processing

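For 22 tested results, 413 alternative values were computed, of which 387 kept both direction and side of the threshold, 6 lost an adjusted p under 0.05, 8 gained one and 12 reversed. The F3′H line difference at 300–400 mg (2.45) gained one with the library number series as a replicate block (2.45, limma adjusted p = 0.0399), in a fit to its single stage (2.45, limma adjusted p = 0.00162) and without each 400–500 mg library (limma adjusted p = 0.0293 to 0.0360), and over leaving out each library it ranged from 2.12 to 2.77. The block changed no other call of the members and raised the numbers of called models to 26 at 300–400 mg, 14 and 35 for the changes within RM30-R* and RM38-r, and 3 for the interaction. Whether the library numbers pair the samples is not stated in the labels.

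Leaving out a library gave these ranges: F3′H line difference at 400–500 mg −0.14 to 0.60, F3′H steps −3.65 to −2.66, −0.58 to 0.084, −0.56 to 0.099 and −2.29 to −1.47 in order of stage, and F3′5′H steps −0.85 to 1.53, −1.75 to 0.63, 0.71 to 1.53 and −0.31 to 1.65. Direction thus changed in 6 of these results, none of which had an adjusted p under 0.05. It changed for F3′5′H without the brown 200–300 mg library (steps to and from that stage), the black 100–200 mg library (first step) or the black desiccating library (last step). It changed for F3′H without replicate 2 of RM30-R* or replicate 1 of RM38-r at 400–500 mg (line difference there), without replicate 1 of RM38-r at 300–400 mg (step from 200–300 mg), and without either black library at 300–400 mg or replicate 1 of RM30-R* at 400–500 mg (step between these stages). Without the libraries R154 to R157, which are replicate 2 of each replicated group, the last F3′H step was −1.58 (limma adjusted p = 0.0814).

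The ratio averaged over stages (0.64) reversed to −0.077 with a pseudocount of 0.5 RPKM (exact permutation p = 0.931) and to −0.033 without the desiccating stage (exact permutation p = 0.986). With pairs of libraries as a replicate block (sign flips of 7 pairs) it was 1.21 (exact permutation p = 0.469). The early to late difference ranged from 3.97 to 7.09 (exact permutation p 0.00694 to 0.0417), and was 5.99 with the replicate block (p = 0.0312, exact).

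Numbers of called models moved more than the members did. At 300–400 mg 12 were called, against 0 to 852 in the alternatives. The change from 300–400 mg to 400–500 mg called 3 in RM30-R* (0 to 14) and 9 in RM38-r (0 to 169), and the interaction 0 (0 to 3). The 4 stage steps called 7353 (1406 to 11782), 0 (0 to 78), 222 (21 to 539) and 7903 (1091 to 13569). The line difference at 400–500 mg called 0 (0 to 6). F3′5′H failed the filter at 300–400 mg alone and without either RM30-R* library at 400–500 mg, and gives no value there. With no filter, leaving out those libraries gave 1.80 to 3.21 for its line difference at 400–500 mg (limma adjusted p 0.153 and 0.0210) and 1.67 to 3.09 for its change in RM30-R* (0.139 and 0.0210). With the second left out, both calls are gained in a fit that no longer holds the spread between those replicates. F3′5′H at 300–400 mg in RM38-r rests on 1 and 2 reads, so its changes from that stage are limited by depth.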
